A study of Mus musculus with 16 samples.

Results

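The effect of neuromedin U (NMU) on IL-33–stimulated lung ILC2s was taken from 8 of the 16 RNA-Seq libraries in the series, namely the 4 libraries with NMU and the 4 libraries without it. All 8 were ILC2s sorted from mouse lung and treated for 4 hours with IL-7 (100 ng/mL) and IL-33 (100 ng/mL), and 4 of them also received NMU (500 ng/mL). In each set of 4, there were 2 libraries from WT mice and 2 from *Pac1*-/- mice, which lack the phosphatase PAC1, encoded by *Dusp2*, and the deletion is not limited to ILC2s. The mice had a C57BL/6J background and were 6 to 8 weeks old. The culture methods of the study describe expansion in IL-2 and IL-7 before stimulation, although they do not name these libraries. Of the other 8 libraries, 4 received IL-7 alone and 4 received IL-7, IL-33, and calcitonin gene–related peptide (CGRP, 500 ng/mL), with the same split by genotype. About 500 ILC2s were sorted for each library, and nothing in the labels says whether libraries of 1 group came from separate mice or cultures, so that *P* values measure the spread between these libraries, which may be technical. The 8 libraries were chosen by their treatment labels, with earlier results of these data known, and genotype entered the tests as a covariate.

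NMU is a neuropeptide released by neurons and acts on ILC2s through NMUR1, a G protein–coupled receptor that signals through Gαq to calcium, calcineurin, and NFAT and through the MAP kinase ERK. IL-33 acts through its receptor chain ST2, encoded by *Il1rl1*, and the shared chain encoded by *Il1rap*, with NF-κB as a main output. ILC2s are tissue lymphocytes without antigen receptors that make IL-5, IL-13, IL-9, and amphiregulin, and in the lung they help to recruit eosinophils and to raise mucus. PAC1 removes phosphate from MAP kinases.

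Across the 8 libraries, between 6764992 and 15470650 reads were counted on genes. A floor of 3 counts equalled 0.171 to 0.462 normalised CPM, which are counts per 1e6 of the library size after edgeR's TMM scaling over all 16 libraries. A floor of this kind covers the counting of reads only and not the sampling of molecules, because PCR copies are not separate molecules. Folds against it are therefore bounds on reads. *Dusp2*, the targeted gene, had 0 counts in 7 of the 8 libraries and 29 counts in WT NMU replicate 1, so that it was too low to check the genotype labels. All 16 ILC2 markers on a list of 16 were above the floor in at least 1 library, and *Gata3*, the transcription factor that defines these cells, lay between 496 and 1119.8 normalised CPM. By the same measure, all 8 B and plasma cell markers and all 7 ILC3 markers were above the floor, so it does not set ILC2s apart. The B and plasma cell list summed to 76.3 to 150 normalised CPM with IL-33 and to 15.3 to 102 with NMU. Of the list of 12 T cell markers, *Cd4*, *Cd5*, and *Cd8a* stayed at or under the floor in all 8 libraries, while 8 others, which include *Cd3g* and *Trbc2*, passed the filter and were tested.

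With NMU, 13 of the 12567 genes tested were higher, which is 0.103%, and 0 were lower, at an adjusted *P* value under 0.05 and a fold change above 1.5 in the quasi-likelihood test of edgeR, adjusted by Benjamini and Hochberg's method (hereafter edgeR). At an unadjusted *P* value under 0.05, 461 genes were higher (3.67%) and 511 were lower (4.07%), and DESeq2 with the same cutoff called 112 higher (0.891%) and 57 lower (0.454%), with 12 of the 13 among them. In edgeR fits that left out 1 library at a time, 15 to 31 genes were higher and 0 to 7 lower, and the 13 were among them each time. The number of higher genes moved by more than 1.5 times in each of these fits except the one without *Pac1*-/- IL-33 replicate 2. With 7 libraries, the filter also let in more genes (14466 to 14900), and the share of each change in the counts was not tested. Of the 13, 11 encode secreted signals, the type 2 cytokines *Il9*, *Il13*, and *Il4*, the interleukins *Il17a*, *Il17f*, *Il2*, and *Il3*, and the chemokines *Ccl3*, *Ccl4*, *Cxcl2*, and *Cxcl3*. The others were *Cd36*, a scavenger receptor that takes up fatty acids, and *Sftpc*, the surfactant protein of lung alveolar type II cells. Together, the 13 genes held 0.584% to 1.098% of all counts in the 4 NMU libraries and 0.0776% to 0.118% in the 4 IL-33 libraries. Of the 13, 5 had 0 counts in every IL-33 library (*Il17a*, *Ccl3*, *Il3*, *Ccl4*, and *Sftpc*). These were tested only through their NMU libraries and could only come out higher. For 12 of the 13, all 4 NMU libraries lay above all 4 IL-33 libraries, against 2.67% of all genes tested, and *Sftpc* was the exception. The 13 were picked by the same values, so that this count is a description.

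The promoters of the 4 interleukin genes with the smallest *P* values are shown because these genes head the response, each as the 300 bases from 250 before the transcription start to 50 after it (RefSeq, GRCm38.p6, written 5′ to 3′ on the gene's strand). Capitals mark letters that match the AP-1 motif TGANTCA, the NFAT core GGAAAA, the EGR core GCGTGG, or the CRE core TGACG on either strand.
*Il17a*, chr1:20730655-20730954, plus strand: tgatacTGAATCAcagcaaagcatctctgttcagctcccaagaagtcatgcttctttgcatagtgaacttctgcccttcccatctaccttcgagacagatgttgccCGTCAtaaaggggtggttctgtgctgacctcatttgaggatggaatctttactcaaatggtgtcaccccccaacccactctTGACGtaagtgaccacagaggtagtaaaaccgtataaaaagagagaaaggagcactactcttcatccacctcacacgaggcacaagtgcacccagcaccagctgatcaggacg
*Il17f*, chr1:20784221-20784520, minus strand: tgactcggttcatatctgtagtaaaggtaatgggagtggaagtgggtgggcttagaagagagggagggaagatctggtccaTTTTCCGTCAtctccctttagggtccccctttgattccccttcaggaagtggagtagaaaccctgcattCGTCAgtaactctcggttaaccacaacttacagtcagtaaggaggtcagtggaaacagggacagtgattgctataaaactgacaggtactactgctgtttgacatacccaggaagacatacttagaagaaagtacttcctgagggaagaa
*Il9*, chr13:56482208-56482507, minus strand: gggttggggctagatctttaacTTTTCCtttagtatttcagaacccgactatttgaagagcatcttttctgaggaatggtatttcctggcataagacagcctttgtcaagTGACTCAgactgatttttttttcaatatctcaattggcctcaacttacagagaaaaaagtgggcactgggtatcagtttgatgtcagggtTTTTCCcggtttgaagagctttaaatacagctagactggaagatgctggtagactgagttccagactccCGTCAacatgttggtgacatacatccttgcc
*Il13*, chr11:53634653-53634952, minus strand: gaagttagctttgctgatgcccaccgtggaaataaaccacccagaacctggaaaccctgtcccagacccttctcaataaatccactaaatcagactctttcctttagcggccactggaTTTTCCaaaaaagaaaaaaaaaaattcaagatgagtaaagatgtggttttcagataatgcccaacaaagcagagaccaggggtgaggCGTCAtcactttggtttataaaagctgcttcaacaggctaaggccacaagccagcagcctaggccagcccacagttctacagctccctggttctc
Of the 12 genes with separated libraries, 11 matched the RefSeq table, with 12 windows. The NFAT letters were found in 8 of these windows, against 23.4% of all 32851 windows of this length and 21.1% of the 11044 windows of tested genes. The CRE core was found in 5, against 20.8% and 32.1%. The AP-1 letters were found in 2 windows, those of *Il17a* and *Il9* (7.81% of all windows, 5.09% of those of tested genes), and the EGR letters in 0 (15.6% and 25.6%). In *Il17f* the NFAT match and a CRE core overlap by their letters. These matches describe letters in a window and were not tested.

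The IL-17 genes led the list. *Il17a*, which encodes IL-17A, a cytokine that recruits neutrophils, had 0 counts in the 4 IL-33 libraries. With NMU, its normalised CPM was 228 and 157 in WT and 512 and 319 in *Pac1*-/- ILC2s. The gene was therefore detected in every NMU library and in no IL-33 library, at least 1296-fold higher when the floor stood in for the zeros (adjusted *P* = 0.000148, edgeR). Its neighbour *Il17f*, whose product shares the IL-17 receptor, had normalised CPM values of 22.2 and 10.01 in WT and 40.8 and 15.98 in *Pac1*-/- ILC2s with IL-33. With NMU, these were 614 and 366 in WT and 1301 and 1285 in *Pac1*-/- ILC2s. Every NMU library was above every IL-33 library, with a log2 fold change of 5.22 ± 0.42 (SE, as for all log2 values below; adjusted *P* = 0.000571, edgeR). Both genes lie on chromosome 1 (*Il17a* at chr1:20730905-20734496, *Il17f* at chr1:20777146-20790617), and the transcripts of *Il17f* hold a stretch that is near-identical in 39 other genes, to which part of its reads could belong. Beside *Il17a*, the summed normalised CPM of the 6 other ILC3 markers was 87.9 to 216 with IL-33 and 68.3 to 86.1 with NMU.

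Of the type 2 cytokines, *Il9*, whose product acts on mast cells and on ILC2s themselves, came next. Its normalised CPM with IL-33 was 203 and 289 in WT and 127 and 96.95 in *Pac1*-/- ILC2s. With NMU, it was 3286 and 2085 in WT and 4795 and 2935 in *Pac1*-/- ILC2s. The lowest NMU library was far above the highest IL-33 library, and the log2 fold change was 4.28 ± 0.42 (adjusted *P* = 0.00264, edgeR). *Il13*, which drives mucus production and airway hyperreactivity, had normalised CPM values with IL-33 of 18.7 and 30.5 in WT and 32.3 and 38.7 in *Pac1*-/- ILC2s. In the NMU libraries, the values were 115 and 140.2 in WT and 348 and 301 in *Pac1*-/- ILC2s. The treatments did not overlap, the *Pac1*-/- NMU libraries were the highest, and the log2 fold change was 2.79 ± 0.29 (adjusted *P* = 0.00306, edgeR). *Il4*, the cytokine of IgE switching, was low with IL-33, with normalised CPM values of 11.3 and 5.91 in WT and 8.996 and 8.32 in *Pac1*-/- ILC2s. With NMU, it reached 68.05 and 61.9 in WT and 125 and 73.3 in *Pac1*-/- ILC2s. Again the libraries separated fully, by a log2 fold change of 3.22 ± 0.36 (adjusted *P* = 0.00485, edgeR).

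*Il2*, the T cell growth factor that also sustains ILC2s, had normalised CPM values of 6.03 and 2.203 in WT and 2.79 and 2.28 in *Pac1*-/- ILC2s with IL-33. With NMU, these were 81.7 and 30.1 in WT and 267 and 179.7 in *Pac1*-/- ILC2s. WT IL-33 replicate 1 stood above the other IL-33 libraries but below all NMU libraries, and the log2 fold change was 5.1 ± 0.68 (adjusted *P* = 0.0146, edgeR). *Il3*, a growth factor of basophils and mast cells, had 0 counts without NMU in every IL-33 library, 1 count in each WT NMU library, and in the *Pac1*-/- NMU libraries 77.3 and 54.2 normalised CPM (adjusted *P* = 0.00784, edgeR). The *Il3* reads came almost wholly from 1 genotype: in *Pac1*-/- ILC2s the gene was at least 317-fold higher with NMU, and in WT ILC2s it stayed under the floor. Its adjusted *P* value was 0.303 without a genotype term and 0.304 with all 16 libraries in 1 fit (edgeR). T cells also make IL-2, IL-3, and IL-17A, and the list of 12 T cell markers summed to 373 to 772 normalised CPM in the IL-33 libraries, to 752 and 534 in the WT NMU libraries, and to 1196 and 701 in the *Pac1*-/- NMU libraries. Its part in these values was not tested.

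**Figure D1:**
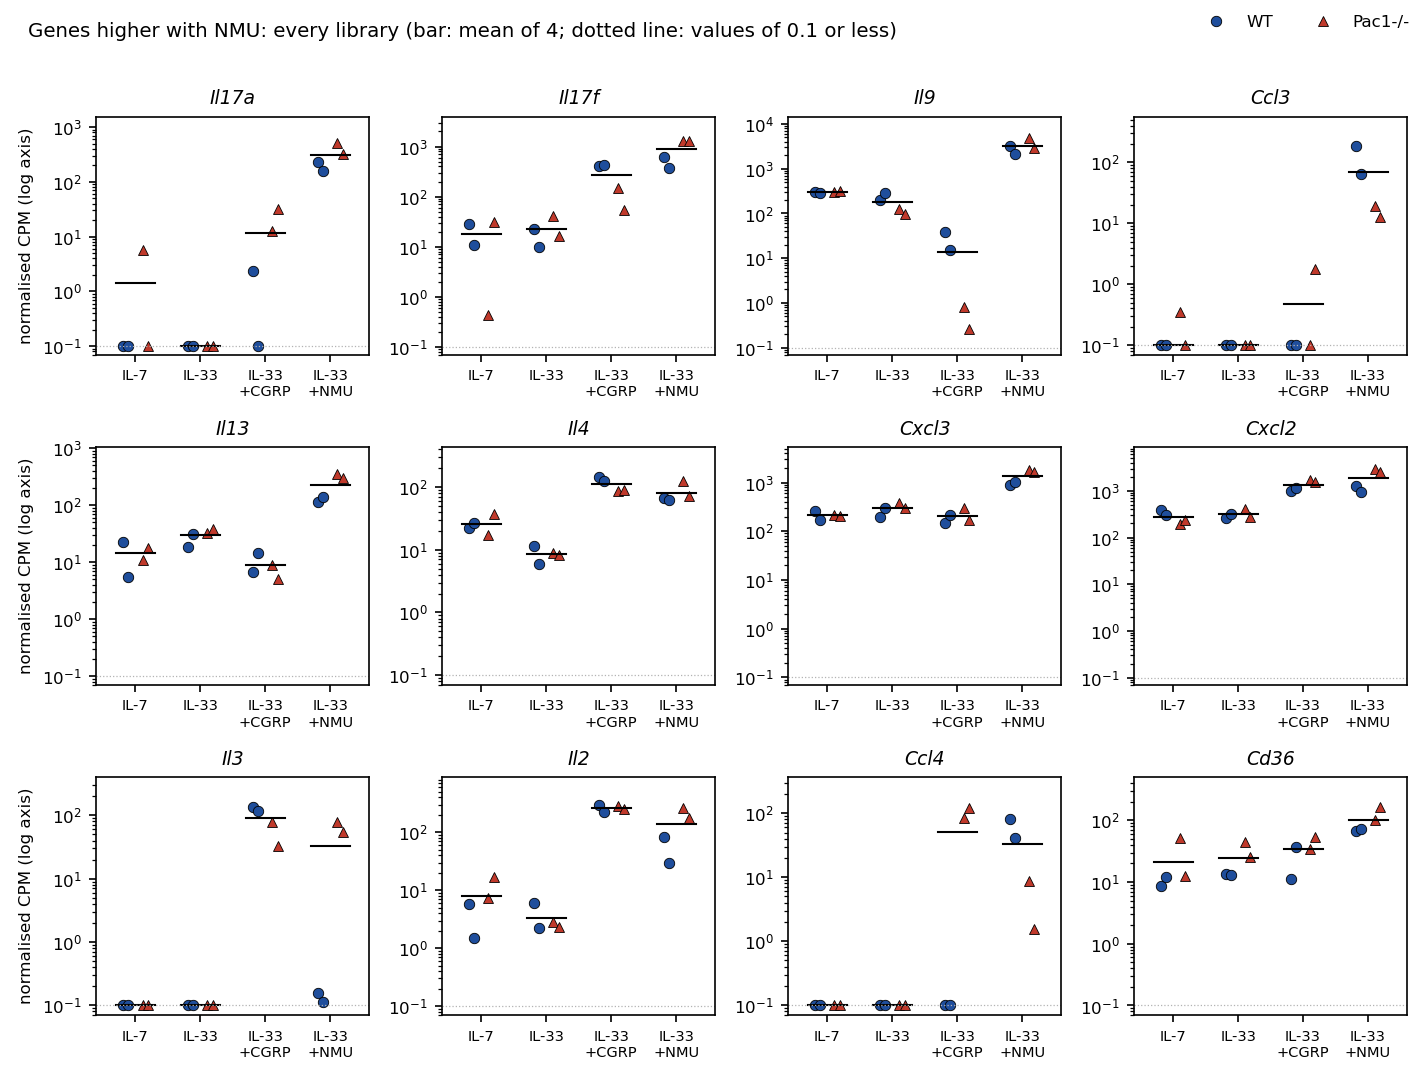
Normalised CPM (log axis) of the 12 genes that passed the cutoff with separated libraries, in each library of the 4 treatments; circles are WT, triangles are *Pac1*-/-, bars are means of 4 libraries, and values of 0.1 or less lie on the dotted line. All NMU points lie above all IL-33 points in each panel, in WT *Il3* by 1 count per library, and for *Il17a*, *Il9*, *Ccl3*, *Il13*, *Cxcl3*, and *Cd36* they lie above all 12 other libraries.

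The chemokines fell into 2 pairs of neighbours. *Cxcl2* and *Cxcl3*, ligands of CXCR2 on neutrophils, start 118 kb apart on chromosome 5 and were expressed without NMU. *Cxcl2* had normalised CPM values with IL-33 of 267 and 315 in WT and 398 and 279 in *Pac1*-/- ILC2s, and with NMU of 1252 and 946 in WT and 2880.2 and 2571 in *Pac1*-/- ILC2s. *Cxcl3* had normalised CPM values with IL-33 of 193 and 305 in WT and 380.2 and 297 in *Pac1*-/- ILC2s, and with NMU of 910.0 and 1032 in WT and 1786 and 1655 in *Pac1*-/- ILC2s. Neither gene overlapped between treatments, and the log2 fold changes were 2.47 ± 0.29 and 2.16 ± 0.24 (adjusted *P* = 0.00689 and 0.00485, edgeR). Their transcripts share a near-identical stretch, so that reads may have been split between them. *Ccl3* and *Ccl4*, which encode attractants of monocytes and T cells, start 14.7 kb apart on chromosome 11 and had 0 counts in all IL-33 libraries. With NMU, the normalised CPM of *Ccl3* was 186 and 63.5 in WT and 19.6 and 12.8 in *Pac1*-/- ILC2s. That of *Ccl4* was 81.1 and 41.8 in WT and 8.699 and 1.53 in *Pac1*-/- ILC2s. Both were higher in the WT than in the *Pac1*-/- NMU libraries, and they were at least 300.2-fold and at least 142-fold higher with NMU over both genotypes (adjusted *P* = 0.00264 and 0.0179, edgeR). Without a genotype term, the adjusted *P* value of *Ccl4* was 0.0809 (edgeR), and with all 16 libraries in 1 fit it was 0.433 (edgeR).

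Macrophages also make CCL3 and CCL4, so the list of 16 markers of macrophages, monocytes, and dendritic cells is given beside them. Its summed normalised CPM was 144 to 251 with IL-33 alone, 301 and 318 in the WT NMU libraries, and 176 and 196 in the *Pac1*-/- NMU libraries. *Lyz2*, lysozyme of myeloid and alveolar type II cells, had 112 and 27.96 normalised CPM in the WT NMU libraries, 0 in both *Pac1*-/- NMU libraries, and at most 0.223 with IL-33. *C1qa*, *C1qb*, *Flt3*, and *Marco* stayed at or under the floor in all 8. Of the 7 markers on this list that were tested, 2 had a log2 fold change above 0 and 5 below. Their median was −0.12 over both genotypes, 0.61 in WT, and −2.41 in *Pac1*-/- ILC2s. *Sftpc* had 179 and 94.6 normalised CPM in the WT NMU libraries, 0.191 and 0 in the *Pac1*-/- NMU libraries, and 0 in all IL-33 libraries (adjusted *P* = 0.00784, edgeR). DESeq2 did not call it (adjusted *P* = 0.189), nor did edgeR without a genotype term (adjusted *P* = 0.310). It is a marker of lung epithelium, and the list of 12 such markers summed to 43.8 to 84.8 with IL-33, to 333 and 194 in the WT NMU libraries, and to 37.4 and 55.1 in the *Pac1*-/- NMU libraries, with *Scgb3a2*, *Sftpb*, and *Sftpd* at or under the floor in all 8. Of the 6 epithelial markers tested, 4 lay above 0 and 2 below, *Epcam* at −0.80 ± 0.33 and *Hopx* at −1.71 ± 1.59. The part of other cells in the *Ccl3*, *Ccl4*, and *Sftpc* values was not tested. In a bulk library, a change in the share of a cell type and a change in RNA per cell cannot be told apart.

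*Cd36* completed the group. It had normalised CPM values with IL-33 of 13.7 and 13.02 in WT and 45.2 and 25.7 in *Pac1*-/- ILC2s, and with NMU of 68.05 and 71.6 in WT and 102 and 165 in *Pac1*-/- ILC2s. The 4 NMU values were all higher, although *Pac1*-/- IL-33 replicate 1 came close, and the log2 fold change was 2.15 ± 0.31 (adjusted *P* = 0.0256, edgeR). The call was lost without the genotype term, at an adjusted *P* value of 0.225, with library total scaling, at 0.0903, and with all 16 libraries in 1 fit, at 0.108 (edgeR).

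Over all genes tested, 335 had all 4 NMU libraries above the 4 IL-33 libraries in normalised CPM (2.67%) and 304 had them below (2.42%). With CPM of the plain library total, the counts were 243 (1.93%) and 424 (3.37%). The median log2 fold change of all genes was −0.07 with TMM and −0.22 with library totals, and 46.1% and 37.7% of genes lay above 0. The fitted values below are on the TMM scale.

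The question of whether NMU acted alike in both genotypes was addressed by the product of genotype and NMU in the same fit. For this term, 0 of 12567 genes passed the edgeR cutoff (0%), 801 had an unadjusted *P* value under 0.05 (6.37%), and DESeq2 called 37 (0.294%). Without WT IL-33 replicate 1 or *Pac1*-/- NMU replicate 2, edgeR called 14 and 21, and without WT IL-33 replicate 2 or *Pac1*-/- NMU replicate 1, it called 1 and 9. A *P* value that misses the threshold does not show that the genotypes respond alike, and the effects are therefore given side by side. *Il9* had a log2 fold change of 3.47 ± 0.42 in WT and 5.1 ± 0.45 in *Pac1*-/- ILC2s, a difference of 1.63 ± 0.54. *Il2* had 3.76 ± 0.64 in WT and 6.44 ± 0.72 in *Pac1*-/- ILC2s, a difference of 2.68 ± 0.84 (adjusted *P* = 0.764 for each difference, edgeR). *Il17f* had 4.94 ± 0.59 in WT and 5.5 ± 0.60 in *Pac1*-/- ILC2s. *Csf2*, which did not pass over both genotypes, stood at 0.10 ± 0.40 in WT and 2.86 ± 0.43 in *Pac1*-/- ILC2s (adjusted *P* of the difference = 0.764, edgeR). DESeq2 called this difference (adjusted *P* = 0.000652). Of the 13 genes, 9 had both *Pac1*-/- NMU libraries above both WT NMU libraries (16.4% of all genes tested) and 3 had them below (17.7% of all genes tested). This count compares levels with NMU and leaves out the IL-33 levels, so it does not measure the NMU effect. *Cd36* was among the 9, with an NMU effect of 2.41 ± 0.45 in WT and 1.90 ± 0.44 in *Pac1*-/- ILC2s.

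**Figure D2:**
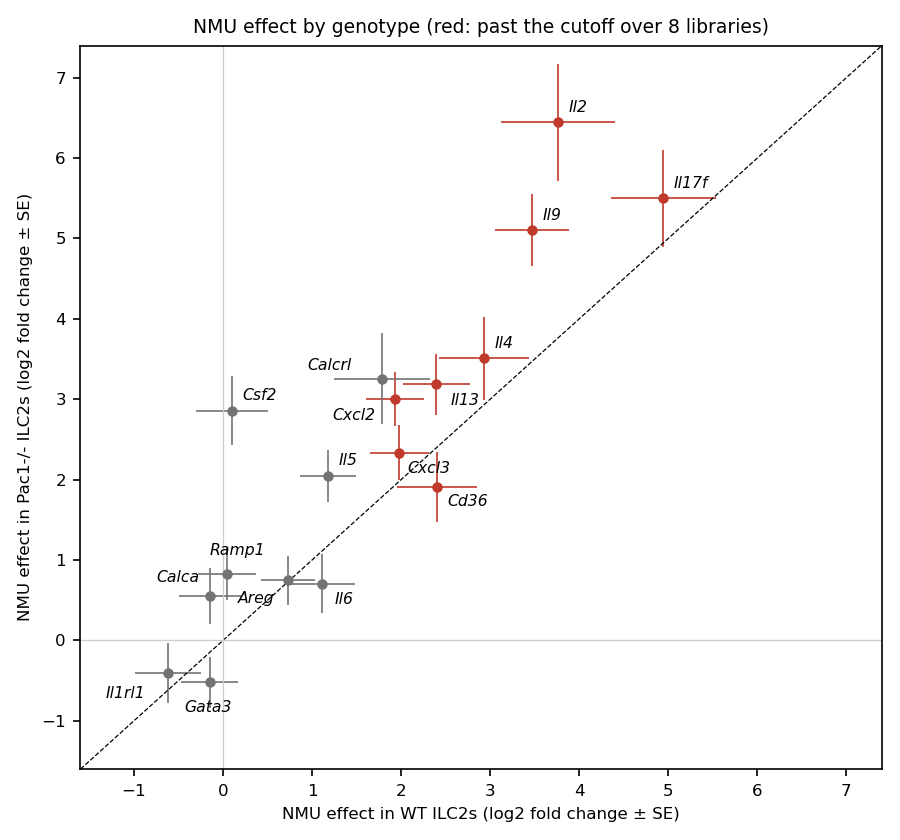
Log2 fold change of NMU against IL-33 in WT (x axis) and *Pac1*-/- ILC2s (y axis), with SE from the fit with the product of genotype and NMU; red points passed the cutoff over all 8 libraries, gray points did not, and the dashed line marks equal effects. Genes with 0 counts in all IL-33 libraries are left out, and 8 of the 8 red points lie above 1 on both axes.

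Several members lie side by side in the genome. The interval on chromosome 11 from *Il4* to *Il3* (chr11:53602982-54267277, GRCm38) spans 664 kb and holds 14 protein-coding genes in GENCODE M21, of which 11 were tested. The cytokine genes *Il4*, *Il13*, and *Il3* passed in it. *Il5* and *Csf2*, also cytokine genes there, had log2 fold changes of 1.61 ± 0.27 and 1.48 ± 0.56 and did not pass (adjusted *P* = 0.0746 and 0.578, edgeR). The gene between *Il13* and *Il5*, *Rad50*, which encodes a DNA repair protein, had −0.42 ± 0.26, and *Irf1*, an interferon response factor just beyond *Il5*, had −0.87 ± 0.64 (adjusted *P* = 0.792 and 0.847, edgeR). *Il5* and *Csf2* each overlap an antisense gene, as does *Il2* on chromosome 3, and the use of strand in the counting is not stated in the sources used here.

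**Figure D3:**
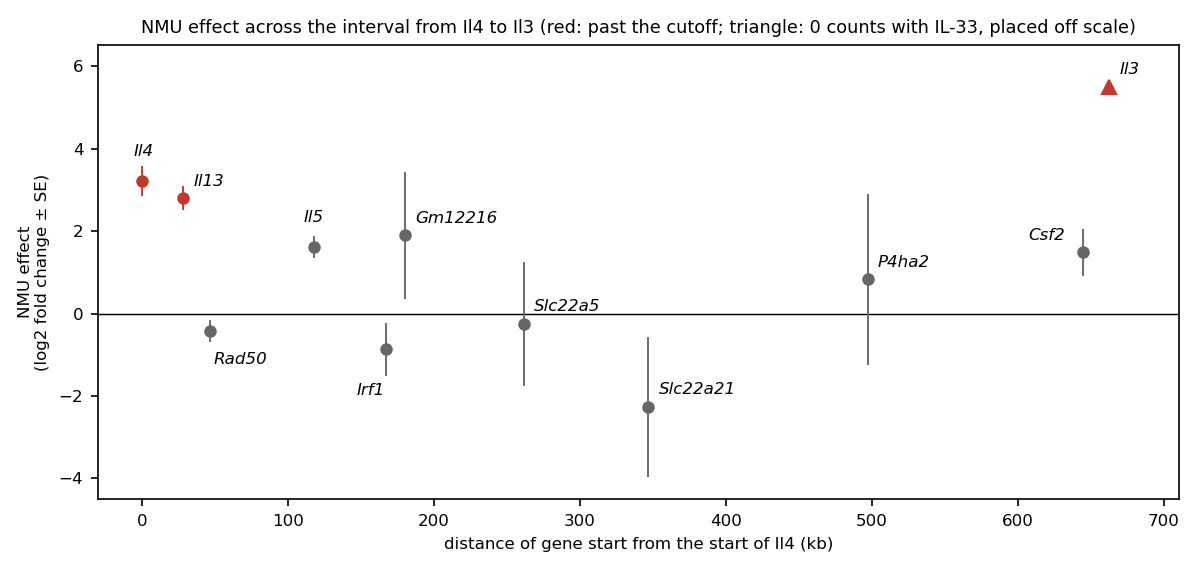
NMU effect (log2 fold change ± SE, y axis) of the 11 tested genes from *Il4* to *Il3* by the distance of each gene's start from that of *Il4* (kb, x axis); red marks genes past the cutoff, and *Il3*, at 0 counts with IL-33, is placed off scale. *Il4* and *Il13* stand at 3.22 and 2.79, with *Rad50* between *Il13* and *Il5* at −0.42.

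*Il5*, the cytokine gene for eosinophil growth and survival, held 0.659% to 0.823% of all counts with IL-33 alone and 1.44% to 2.47% with NMU. Its normalised CPM was 6348 and 7623 in WT and 7246 and 5192 in *Pac1*-/- ILC2s with IL-33. With NMU, it was 14988 and 16226 in WT and 27500 and 24154 in *Pac1*-/- ILC2s. Although the treatments did not overlap, *Il5* missed the cutoff (log2 fold change 1.61 ± 0.27; adjusted *P* = 0.0746, edgeR). Its adjusted *P* value was 0.0171 without WT IL-33 replicate 2, 0.00357 without WT NMU replicate 2, and 0.0201 without *Pac1*-/- NMU replicate 1 (edgeR), whereas the other 5 omissions left it over the threshold. DESeq2 called it (adjusted *P* = 2.45e-08).

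Of the list of 15 type 2 effector genes, 13 were tested. The 3 that passed were *Il9*, *Il13*, and *Il4*, all higher, against 0.103% of all genes tested. The list had 0 lower, and its median log2 fold change was 1.33, against −0.07 over all genes tested. All 4 NMU libraries were above the IL-33 libraries for 7 of the 13 tested and below for 1, against 2.67% and 2.42% of all genes tested. *Areg*, which encodes the repair factor amphiregulin, had normalised CPM values with IL-33 of 104 and 109 in WT and 132 and 129.7 in *Pac1*-/- ILC2s, and with NMU of 192 and 157 in WT and 202 and 242 in *Pac1*-/- ILC2s. These values were separated but close together, and *Areg* did not pass (log2 fold change 0.74 ± 0.21; adjusted *P* = 0.436, edgeR, and 0.0443, DESeq2). *Csf2*, which encodes the myeloid growth factor GM-CSF, had normalised CPM values with IL-33 of 1081 and 1688 in WT and 781 and 630.5 in *Pac1*-/- ILC2s, and with NMU of 1882 and 1056 in WT and 6407 and 3869 in *Pac1*-/- ILC2s. Its WT values overlapped between treatments and its *Pac1*-/- NMU values were the 2 highest. *Arg1*, arginase 1, had normalised CPM values with IL-33 of 375 and 276 in WT and 273 and 139 in *Pac1*-/- ILC2s, and with NMU of 629.8 and 619.7 in WT and 612 and 742 in *Pac1*-/- ILC2s, without overlap (log2 fold change 1.33 ± 0.28; adjusted *P* = 0.219, edgeR, and 0.000558, DESeq2). *Tnfsf4*, the co-stimulatory ligand OX40L, had normalised CPM values with IL-33 of 106 and 149 in WT and 198 and 159 in *Pac1*-/- ILC2s, and with NMU of 52.96 and 64.8 in WT and 44.1 and 58.4 in *Pac1*-/- ILC2s. All of its NMU values were lower, and it too missed the cutoff (log2 fold change −1.46 ± 0.27; adjusted *P* = 0.129, edgeR, and 0.000105, DESeq2). *Arg1* and *Tnfsf4*, like the genes in the paragraphs that follow that are neither among the 13 nor *Il6*, *Calca*, *Calcrl*, *Ramp1*, *Nmur1*, *Gata3*, or *Il1rl1*, were picked as examples after their values were seen.

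Among 27 other cytokine and growth factor genes, 17 were tested, and the median was −0.15. Of these, 4 passed, all higher (*Il17a*, *Il17f*, *Il3*, and *Il2*), against 0.103% of all genes tested. *Il17a* and *Il3* were tested only through their NMU libraries and could only come out higher, and without these 2 the median was −0.22. *Il6*, a cytokine of the acute phase, had normalised CPM values with IL-33 of 238 and 350.3 in WT and 441 and 318 in *Pac1*-/- ILC2s, and with NMU of 716 and 539 in WT and 768 and 477 in *Pac1*-/- ILC2s. Its NMU libraries were all higher, with a log2 fold change of 0.91 ± 0.26 that did not pass (adjusted *P* = 0.449, edgeR, and 0.0416, DESeq2). Among 19 chemokine genes, 10 were tested, the 4 named above passed, against 0.103% of all genes tested, and the median was 2.31. *Ccl3*, *Ccl4*, and *Xcl1* were tested only through their NMU libraries, and without these 3 the median was 1.85. *Xcl1*, a ligand for dendritic cells, had no reads with IL-33 alone, and normalised CPM values with NMU of 4.77 and 5.24 in WT and 15.96 and 5.76 in *Pac1*-/- ILC2s (adjusted *P* = 0.1197, edgeR, and 4.76e-07, DESeq2). *Cxcl1*, a CXCR2 ligand between *Cxcl3* and *Cxcl2*, had normalised CPM values with IL-33 of 0.0744 and 3.905 in WT and 0 and 13.9 in *Pac1*-/- ILC2s, and with NMU of 73.9 and 105 in WT and 198 and 115 in *Pac1*-/- ILC2s (not past the cutoff, adjusted *P* = 0.3199, edgeR). In the remaining 17 of the 20 lists for signaling and function, edgeR called 0 genes, and DESeq2 called 1 to 4 in 9 of them. Over all genes tested, DESeq2 called 0.891% higher and 0.454% lower.

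**Figure D4:**
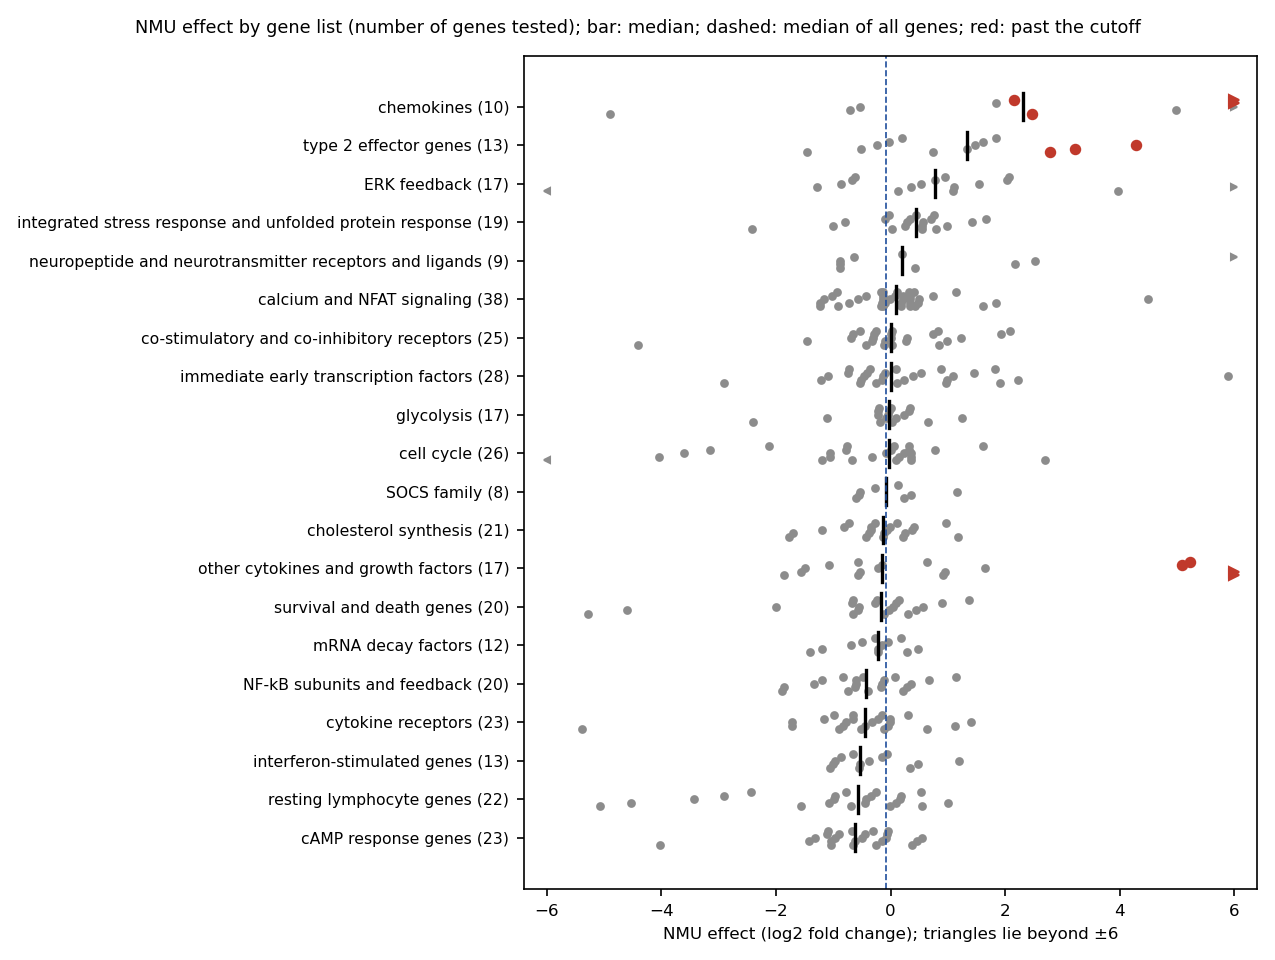
Log2 fold change of NMU against IL-33 for the tested members of the 20 gene lists, ordered by median; the number tested is in parentheses, red marks genes past the cutoff, black bars are list medians, and the dashed line is the median of all genes. Medians run from −0.62 for the cAMP response genes to 2.31 for the chemokines, and triangles stand for values beyond 6 in either direction.

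In the list of ERK feedback genes, 17 were tested, 12 had a log2 fold change above 0 (70.6%, against 46.1% of all genes tested), and the median was 0.78. EdgeR called 0 of them and DESeq2 3 higher and 1 lower, against 0.891% and 0.454% of all genes tested. Among the 3 was *Dusp4*, which had 0 counts in every IL-33 library (adjusted *P* = 0.0307, DESeq2). It was tested only through its NMU libraries and could only come out higher. On this list, 2 genes were at or under the floor in 1 treatment, and without them the median was also 0.78. *Dusp6*, a phosphatase of ERK, had normalised CPM values with IL-33 of 13.7 and 20.7 in WT and 24.8 and 46.9 in *Pac1*-/- ILC2s, and with NMU of 101 and 94.5 in WT and 102 and 120.5 in *Pac1*-/- ILC2s. The treatments were separated and the NMU values lay close together, but the edgeR test missed the cutoff (log2 fold change 2.07 ± 0.34; adjusted *P* = 0.0623, edgeR), while it passed when any 1 library was left out (adjusted *P* from 0.00769 to 0.0491, edgeR). DESeq2 called it with all 8 libraries (adjusted *P* = 2.28e-06). *Spry2*, an inhibitor of receptor signaling to ERK, had normalised CPM values with IL-33 of 94.5 and 112 in WT and 121 and 122 in *Pac1*-/- ILC2s, and with NMU of 273 and 209 in WT and 260.5 and 212 in *Pac1*-/- ILC2s, again separated (log2 fold change 1.1 ± 0.22; adjusted *P* = 0.191, edgeR, and 0.000612, DESeq2). The calcium and NFAT list had 38 genes tested, of which 20 lay above 0 (52.6%, near the 46.1% of all genes tested), with a median of 0.10, and 0 were called by either tool. In the list of immediate early transcription factors, 28 were tested, 14 lay on either side of 0 (50% above, also near that share), and the median was −0.000113. EdgeR called 0 of them and DESeq2 3, all higher, against 0.891% of all genes tested. *Egr2*, induced by NFAT and ERK in lymphocytes, was at or below 0.446 normalised CPM in each IL-33 library and was 7.39 and 11.7 in WT and 8.03 and 11.8 in *Pac1*-/- ILC2s with NMU (adjusted *P* = 0.175, edgeR, and 2.28e-06, DESeq2). *Irf4*, a transcription factor of activated lymphocytes, had normalised CPM values with IL-33 of 26.1 and 31.04 in WT and 17.6 and 31.5 in *Pac1*-/- ILC2s, and with NMU of 108 and 38.7 in WT and 139 and 101 in *Pac1*-/- ILC2s (adjusted *P* = 0.246, edgeR, and 0.00212, DESeq2).

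In several other lists, most of the values fitted over both genotypes lay below 0, as did 6772 of the 12567 genes tested. Of the 24 cAMP response genes, 23 were tested, 20 of them lay below 0, and the median was −0.62. By genotype, this median was −0.29 in WT and −0.77 in *Pac1*-/- ILC2s. EdgeR called 0 of them and DESeq2 1 as lower, against 0.454% of all genes tested. The gene called was *Lmo4* (adjusted *P* = 9.68e-07, DESeq2). *Lmo4*, a transcriptional cofactor on that list, had normalised CPM values with IL-33 of 343 and 396 in WT and 297 and 487 in *Pac1*-/- ILC2s, and with NMU of 143 and 147 in WT and 134 and 142 in *Pac1*-/- ILC2s. Its 4 NMU values were nearly equal and lay below every IL-33 value, and it missed the cutoff of edgeR (log2 fold change −1.43 ± 0.23; adjusted *P* = 0.0623, edgeR). Without WT IL-33 replicate 1, *Pac1*-/- IL-33 replicate 1, or WT NMU replicate 2, its adjusted *P* value was 0.0491, 0.0203, and 0.0341 (edgeR). Of the 23 cytokine receptor genes tested, 19 lay below 0 and the median was −0.45. By genotype, this median was 0.04 in WT and −0.98 in *Pac1*-/- ILC2s, so the list median did not fall in WT. *Il1rap* and *Il7r*, given below, were lower with NMU in both genotypes. Medians were also lower in *Pac1*-/- than in WT ILC2s for lists such as glycolysis (−0.30 and 0.36) and cholesterol synthesis (−0.59 and 0.06). Of the 20 lists, only the type 2, chemokine, immediate early, calcium and NFAT, ERK feedback, and neuropeptide lists went the other way. Whether the gap is particular to cytokine receptors was not tested. *Il1rap*, the shared chain of the IL-33 receptor, had normalised CPM values with IL-33 of 18.6 and 26.3 in WT and 16.7 and 15.2 in *Pac1*-/- ILC2s, and with NMU of 1.08 and 0 in WT and 0.765 and 0 in *Pac1*-/- ILC2s. The NMU libraries lay far below the IL-33 libraries in both genotypes, although the edgeR test did not call it (adjusted *P* = 0.218, and 3.16e-06 in DESeq2, which did), while it passed in 5 of the 8 fits that left out 1 library (adjusted *P* from 0.0170 to 0.194 over the 8, edgeR). *Il7r*, the IL-7 receptor chain, had normalised CPM values with IL-33 of 668 and 933 in WT and 598 and 698 in *Pac1*-/- ILC2s, and with NMU of 427 and 299 in WT and 372 and 345 in *Pac1*-/- ILC2s, all lower (log2 fold change −0.99 ± 0.23; adjusted *P* = 0.294, edgeR, and 0.00293, DESeq2). *Il1rl1*, the ST2 gene, had normalised CPM values with IL-33 of 606 and 1017 in WT and 521 and 929.7 in *Pac1*-/- ILC2s, and with NMU of 517 and 528 in WT and 530.5 and 578 in *Pac1*-/- ILC2s, with overlap (log2 fold change −0.51 ± 0.26; adjusted *P* = 0.699, edgeR). The NF-κB list had 14 of 20 tested genes below 0 (median −0.44, with −0.05 in WT and −0.82 in *Pac1*-/- ILC2s). The list of genes of resting lymphocytes had 16 of 22 below 0 (median −0.57, with −0.21 in WT and −0.86 in *Pac1*-/- ILC2s). Over both genotypes, the medians of the cAMP response, cytokine receptor, NF-κB, and resting lymphocyte lists kept their signs with other scalings. So did those of the type 2, chemokine, and ERK feedback lists. The scalings were RLE, upper quartile, and library total.

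**Figure D5:**
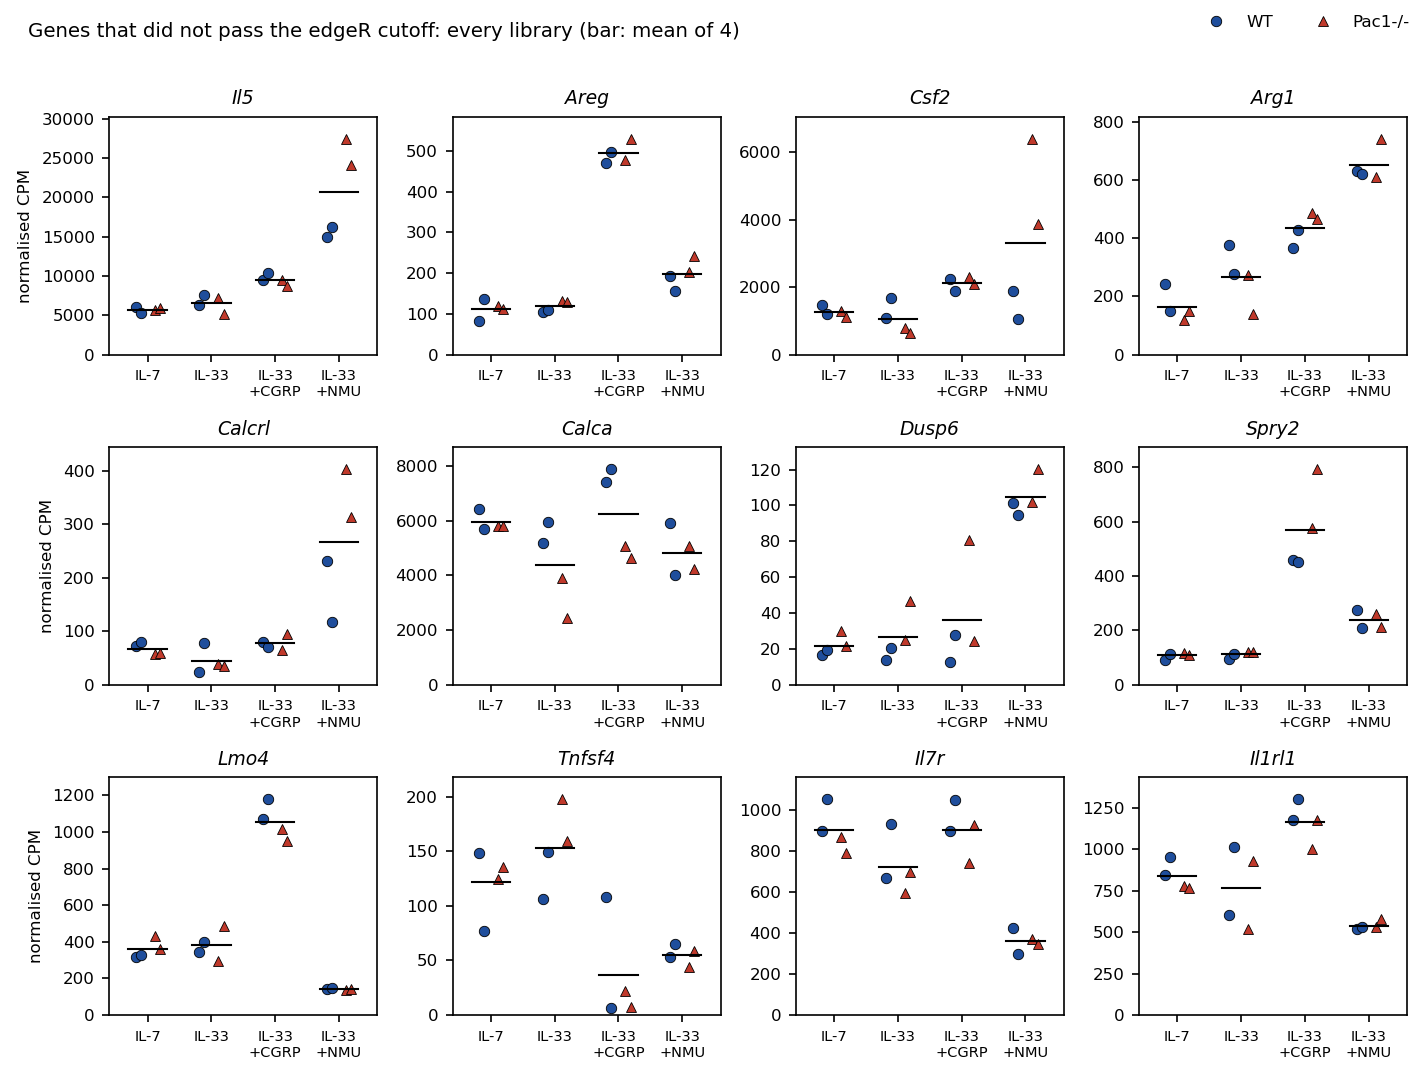
Normalised CPM of 12 genes that did not pass the cutoff, in each library of the 4 treatments, with axes that start at 0; circles are WT, triangles are *Pac1*-/-, and bars are means of 4 libraries. *Il5*, *Areg*, *Arg1*, *Calcrl*, *Dusp6*, and *Spry2* have all NMU points above the IL-33 points, and *Lmo4*, *Tnfsf4*, and *Il7r* have them below.

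The neuropeptide list had 9 genes tested, of which edgeR called 0 and DESeq2 2, both higher, against 0.891% of all genes tested. Of the 9, 1 was at or under the floor of 3 counts in 1 treatment. A gene tested only through its NMU libraries can only come out higher. The median log2 fold change of the list was 0.20, and −0.22 without that gene. *Calcrl*, the receptor chain for CGRP, had normalised CPM values with IL-33 of 24.6 and 77.2 in WT and 38.8 and 35.8 in *Pac1*-/- ILC2s, and with NMU of 231 and 117 in WT and 404 and 313 in *Pac1*-/- ILC2s. The treatments did not overlap, and the test missed the cutoff (log2 fold change 2.52 ± 0.45; adjusted *P* = 0.113, edgeR, and 9.08e-07, DESeq2), but in 6 of the 8 fits that left out 1 library it passed (adjusted *P* from 9.05e-05 to 0.148 over the 8, edgeR). *Calca*, the gene of CGRP itself, had normalised CPM values with IL-33 of 5171 and 5955 in WT and 3902 and 2438 in *Pac1*-/- ILC2s, and with NMU of 5932 and 4010.5 in WT and 5074 and 4252 in *Pac1*-/- ILC2s, which overlapped (log2 fold change 0.20 ± 0.27; adjusted *P* = 0.963, edgeR). *Ramp1*, the partner chain of the CGRP receptor, likewise overlapped, with a log2 fold change of 0.44 ± 0.26. *Nmur1*, the NMU receptor gene, had normalised CPM values with IL-33 of 14.9 and 0.3004 in WT and 16.3 and 2.202 in *Pac1*-/- ILC2s, and with NMU of 2.77 and 11.1 in WT and 0.956 and 4.86 in *Pac1*-/- ILC2s. These values varied between replicates more than between treatments (log2 fold change −0.88 ± 1.16; adjusted *P* = 0.963, edgeR). *Gata3* had a log2 fold change of −0.33 ± 0.23 (adjusted *P* = 0.83, edgeR).

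On the surface, *Tigit*, an inhibitory receptor, had normalised CPM values with IL-33 of 64.7 and 128 in WT and 106 and 29.3 in *Pac1*-/- ILC2s, and with NMU of 366 and 292 in WT and 318 and 398 in *Pac1*-/- ILC2s. Its NMU libraries were all above its IL-33 libraries (log2 fold change 2.09 ± 0.40; adjusted *P* = 0.15, edgeR, and 1.55e-05, DESeq2), and the cutoff was passed whenever 1 library was left out (adjusted *P* from 0.00675 to 0.0483, edgeR). Of the homing receptors, *Ccr8* stood at a mean of 1023 ± 372 with IL-33 and 2457 ± 451 with NMU, and *Ccr2* stood at 911 ± 134 and 525 ± 39.98 (normalised CPM, SD, *n* = 4). Neither passed (adjusted *P* = 0.262 and 0.397, edgeR). *Stap1*, an adaptor of receptor tyrosine kinases, had the smallest adjusted *P* value among genes that did not pass, with normalised CPM values with IL-33 of 14.9 and 42.6 in WT and 21.6 and 23.5 in *Pac1*-/- ILC2s, and with NMU of 144 and 109 in WT and 95.3 and 107 in *Pac1*-/- ILC2s, but near-identical stretches of its transcripts occur in 131 other genes (adjusted *P* = 0.0586, edgeR, and 1.14e-06, DESeq2).

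The NMU libraries were also set against IL-7 alone and CGRP. Of the 13 genes, 6 had all 4 NMU libraries above all 12 other libraries of the series, as did 1.04% of all genes tested: *Il17a*, *Il9*, *Ccl3*, *Il13*, *Cxcl3*, and *Cd36*. For 5 of the 13, *Il17f*, *Il4*, *Cxcl2*, *Il3*, and *Il2*, all 4 CGRP libraries were also above all 4 IL-33 libraries (6.03% of all genes tested). The normalised CPM of *Il9* with IL-7 alone was 297 and 283 in WT and 304 and 315 in *Pac1*-/- ILC2s. With IL-33 and CGRP, it was 38.1 and 15.03 in WT and 0.812 and 0.259 in *Pac1*-/- ILC2s. The CGRP values lay below every IL-33 and IL-7 value. In direct comparison of NMU with CGRP over 12834 genes, edgeR called 185 genes higher with NMU (1.44%) and 310 lower (2.42%), with 84 to 189 and 168 to 258 when 1 library was left out, the lowest without *Pac1*-/- NMU replicate 2, and DESeq2 called 733 (5.71%) and 958 (7.46%). Of the 13 genes, edgeR called 5 higher with NMU than with CGRP (*Il17a*, *Il9*, *Il13*, *Cxcl3*, and *Sftpc*), 0 lower, and 8 not. Among those 8, DESeq2 gave adjusted *P* values of 0.0279 for *Il2* and 0.0295 for *Il3*, both lower with NMU. It gave 0.000278 for *Ccl3* and 0.00384 for *Cd36*, both higher. In WT ILC2s with CGRP, *Il2* had 298 and 224 normalised CPM and *Il3* 133 and 116, all above the WT NMU values. In *Pac1*-/- ILC2s, both genes overlapped between CGRP and NMU. For *Il9*, the log2 difference was 8.99 ± 1.35 (adjusted *P* = 0.0102, edgeR), and for *Il13* it was 4.52 ± 0.51 (adjusted *P* = 0.00301, edgeR). With CGRP, the normalised CPM of *Il4* was 145 and 126 in WT and 86.9 and 90.2 in *Pac1*-/- ILC2s. That of *Cxcl2* was 1005 and 1163 in WT and 1708 and 1509 in *Pac1*-/- ILC2s. In WT ILC2s, *Il4* was higher with CGRP than with NMU, and in *Pac1*-/- ILC2s, *Cxcl2* was higher with NMU, each without overlap, while over both genotypes there were log2 differences of −0.47 ± 0.32 and 0.37 ± 0.20 that did not pass (adjusted *P* = 0.482 and 0.365, edgeR). *Ccl4* had 0 counts with CGRP in WT ILC2s and 83.8 and 122 normalised CPM in *Pac1*-/- ILC2s, where the list of macrophage, monocyte, and dendritic cell markers stood at 923 and 819, against 190 and 379 in WT ILC2s with CGRP. Its part in the *Ccl4* values was not tested.

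Some genes that missed the cutoff against IL-33 alone did differ between NMU and CGRP. *Areg* was lower with NMU than with CGRP, by a log2 difference of −1.35 ± 0.17, with normalised CPM values in the CGRP libraries of 471 and 498 in WT and 478 and 531 in *Pac1*-/- ILC2s (adjusted *P* = 0.00471, edgeR). *Lmo4* had normalised CPM values with CGRP of 1070 and 1181 in WT and 1019 and 949 in *Pac1*-/- ILC2s, so that CGRP and NMU libraries lay on opposite sides of the IL-33 libraries (log2 difference −2.92 ± 0.15; adjusted *P* = 0.000212, edgeR). *Il5* and *Calcrl* were higher with NMU than with CGRP, by 1.05 ± 0.20 and 1.65 ± 0.32 on the log2 scale (adjusted *P* = 0.0254 and 0.02599, edgeR). *Il1rl1* and *Il7r* were lower with NMU than with CGRP, by log2 differences of −1.14 ± 0.15 and −1.35 ± 0.18 (adjusted *P* = 0.00659 and 0.00659, edgeR). The NMU libraries are the same in both comparisons, which are therefore not independent.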

How the data were processed

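Lung ILC2s, about 500 per library, were sorted into lysis buffer, amplified as full-length cDNA, and sequenced in pairs, and HISAT2 was the authors' aligner, with mm10 as the genome. They deposited a table of raw counts, not normalised, with 51912 Ensembl genes in 16 libraries, and 51633 of these genes matched a GENCODE M21 symbol. The counting tool, its annotation, and its use of strand are not given in the sources used here, and there were no molecular identifiers.

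Here, the 4 NMU and 4 IL-33 libraries were grouped by the labels and compared with edgeR 4.0.16 (TMM, filterByExpr, quasi-likelihood test, genotype as covariate) in R 4.3.3. The cutoff was a Benjamini-Hochberg adjusted *P* value under 0.05 and a fold change above 1.5, and SE is the log2 fold change divided by the square root of *F*. The same fit was made with the product of genotype and NMU, and for NMU against CGRP. The common biological coefficient of variation was 0.848. DESeq2 1.42.0, other scalings, other filters, a replicate block, fits of 1 genotype, and fits without 1 library served as alternatives. Where all IL-33 libraries had 0 counts, a fold is a lower bound against a floor of 3 counts per library, and fitted folds are not given.

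Named were the 12 genes with the smallest *P* value among those past the cutoff with separated libraries and a mean of at least 5 CPM in the higher group, list members past the cutoff, and 15 genes whatever their result (*Il4*, *Il5*, *Il9*, *Il13*, *Il17a*, *Il6*, *Csf2*, *Areg*, *Calca*, *Calcrl*, *Ramp1*, *Nmur1*, *Dusp2*, *Gata3*, *Il1rl1*). The libraries and gene lists were chosen with earlier results of these data known. Gene positions are from GENCODE M21 (GRCm38), promoters from RefSeq, and near-identical stretches (95% over 100 bases) from BLAST 2.17.0 of the transcripts.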

Additional observations from a re-analysis of the deposited data

Results flagged for a closer look

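In 41 groups of 4 libraries over 23 genes, the highest or lowest library was compared with the spread of its group, a rule that picks about 1 group in 20 by chance, and 2 groups were picked. *Il2* with IL-33 had normalised CPM values of 2.20, 2.28, 2.79, and 6.03, and the gap of WT IL-33 replicate 1 to the next library was 0.846 of the range. *Dusp2* with NMU had 0 in 3 libraries and 4.46 in WT NMU replicate 1, which is 1 of the range, and this library was also the shallowest of the 8, at 6764992 counts.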

How the results depend on the processing

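The number of genes higher with NMU, 13, was 13 with RLE factors, 14 with upper quartile factors, 13 with library totals, and 13 with the adjusted *P* value alone, and 0 were lower in each. DESeq2 called 112 higher and 57 lower (12 of the 13 shared), edgeR without a filter 56 and 21 (13 shared), with at least 10 counts in every library 24 and 3 (8 shared, since genes with zeros are not tested), and with all 16 libraries 20 and 3 (10 shared, without *Il3*, *Ccl4*, and *Cd36*). Without a genotype term, 11 were higher (9 shared) and 1 lower, and WT or *Pac1*-/- libraries alone, with 2 against 2, gave 2 and 3 higher. Leaving out 1 library, which also let 14466 to 14900 genes through the filter, gave 15 to 31 higher and 0 to 7 lower, and only without *Pac1*-/- IL-33 replicate 2 did the number higher stay within 1.5 times. The interaction of genotype and NMU gave 37 genes with DESeq2, 20 without a filter, and 0 to 21 without 1 library. NMU against CGRP gave 733 and 958 with DESeq2, and 84 to 189 higher and 168 to 258 lower without 1 library. *Calca* reversed with WT libraries alone (log2 fold change −0.14), and *Nmur1* without *Pac1*-/- IL-33 replicate 1 (0.084, the highest of −1.58 to 0.084 without 1 library), neither past the cutoff. Over the single genes and all alternatives, 1118 values kept direction and call, 132 gained the call, 30 lost it, and 2 reversed. Except where given above, the cause was not tested.

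Libraries with the same replicate number did not deviate together (correlation of deviations −0.27 in WT and −0.14 in *Pac1*-/- over 4880 genes). Each correlation rests on only 2 libraries per treatment, so it cannot decide whether the numbers pair libraries from the same mice or cultures. With the replicate block, 11 genes were higher and 0 lower (*Il3* and *Cd36* were not called, at adjusted *P* = 0.058 and 0.144, edgeR), the interaction gave 0, and NMU against CGRP gave 74 higher and 134 lower. Crossing the replicate numbers in the block, chosen after seeing the data like the library totals, gave 17 higher and 0 lower. The precision is limited by 2 libraries of about 500 cells per genotype and treatment.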

Other observations

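Genes that assemble ribosomes in the nucleolus mostly had fitted values above 0 with NMU. The list was written after the values were seen, so that no test is given and its counts are a description. Of 96 genes tested, edgeR called 0, and 35 had an unadjusted *P* value under 0.05 in the higher direction (3.67% of all genes) and 0 in the lower, and DESeq2 called 19 higher (0.891% of all genes). The median log2 fold change was 0.69 (0.63 in WT and 0.62 in *Pac1*-/- ILC2s) against −0.07 for all genes, and 89 of the 96 lay above 0, or 82 with library total scaling. All 4 NMU libraries were above all IL-33 libraries for 24 of them (2.67% of all genes). *Pno1*, which helps to mature the small subunit, had a mean of 94.2 ± 32.3 normalised CPM with IL-33 and 260.4 ± 31.2 with NMU (SD, *n* = 4; log2 fold change 1.49 ± 0.30 SE; adjusted *P* = 0.180, edgeR). *Ltv1*, of the same subunit, had 45.4 ± 11.7 and 108 ± 19.1. *Nop58*, a core protein of small nucleolar RNPs, had 264 ± 42.4 and 479 ± 76.5, and *Dkc1*, the pseudouridine synthase dyskerin, had 201 ± 35.9 and 366 ± 56.6. *Npm1*, nucleophosmin, had 1075 ± 143 and 1948 ± 422. For each of these genes the treatments did not overlap.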
